A study of Mus musculus with 3 samples.

Results

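The cells described here are epithelial tumour cells from the first time point of a gel culture experiment, compared between collagen I and Matrigel. They came from mammary tumours of FVB C3(1)-Tag animals, in which the promoter of the rat C3(1) gene drives a simian virus large T antigen, so every cell of both groups carries the same transgene. The mice were 25 to 30 weeks old, with tumours of about 20 mm, and are numbered 1 to 4 in the cell annotation. The collagen group held tumour cells embedded in a collagen I gel for 12 h, and the Matrigel group held cells of the same 4 mice embedded for 12 h in Matrigel. Both groups received 2.5 nM FGF2. Collagen cultures were released with collagenase at 2 mg/ml for 10 min and Matrigel cultures with 10 mM EDTA on ice for 30 min, so the matrix and the way of release cannot be told apart. All cells of the day were run as 1 pool, in which a lipid-anchored barcode (MULTI-seq) marked mouse and gel. The annotation names this time point D1, and its match to the pool labelled day 0 is an inference from the names of the other 2 pools.

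A cell was kept if it had at least 5000 UMIs (unique molecular identifiers, each standing for 1 captured RNA molecule), at least 1 UMI of the epithelial adhesion gene Epcam, and none of the macrophage genes Tyrobp and Fcer1g or the fibroblast genes Col1a1 and Col3a1. This left 1998 cells, 671 in collagen and 1327 in Matrigel, out of 2961 in the day 0 pool and 7620 in the series. In collagen, 1018 cells carried a mouse label, 775 passed the depth filter, 710 also had Epcam and 671 also lacked the other 4 genes. In Matrigel these steps left 1845, 1491, 1391 and 1327 cells. The 4 mice gave 297, 146, 126 and 102 kept cells in collagen and 313, 279, 346 and 389 in Matrigel. UMIs were summed over the kept cells of each mouse and gel, so the mouse is the replicate and pairs the gels. The 8 sums held 2128746 to 8444861 UMIs, and values below are CPM (the usual library-scaled unit of counts) in mice 1, 2, 3 and 4, in that order. Each sum was scaled by its UMIs of tested genes times its TMM factor, a correction between sums that ran from 0.935 to 1.05. A sum cannot tell more cells with a gene from more RNA of it per cell, and shares of cells are given for that reason where they were computed.

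The label of the cells was checked against their markers. All 11 mammary epithelial markers were detected well enough to be tested. Together they summed to 5975 to 7904 CPM in collagen and 7906 to 9381 CPM in Matrigel. The count and the sum include Epcam, which the gate required in every cell, so for that gene they are no check. Leaving aside Epcam, which the gate uses, 1 (Krt5) was called higher and 3 (Krt8, Krt18 and Cdh1) lower in collagen. Markers of the 13-gene macrophage list summed to 62.3 to 77.9 CPM in collagen and 55.6 to 98.7 CPM in Matrigel, and none of the 4 that could be tested differed. Fibroblast markers (11 genes) summed to 90.4 to 158 CPM in collagen and 25.1 to 107 CPM in Matrigel, and 2 of 5 tested, Postn and Col6a1, were higher in collagen. Of the 6 endothelial markers Cdh5 was at 0 in all sums, and the list reached at most 7.36 CPM in collagen and 6.03 CPM in Matrigel, with the 1 tested member, Egfl7, higher in collagen. Neutrophil markers summed to 24.5 to 200 CPM in collagen and 14.3 to 155 CPM in Matrigel, and pericyte markers to 11.03 to 25.4 CPM in collagen and 8.91 to 33.1 CPM in Matrigel, with none of the tested members called. Markers of T and NK cells, dendritic cells, B cells and red cells stayed under 10 CPM as lists. Cells of the 4T1 mammary carcinoma line were part of the pool, and 39 kept cells with a mouse label were nearer to the profile of these cells than to that of tumour epithelium. They numbered 9, 3, 2 and 9 in collagen and 3, 4, 3 and 6 in Matrigel, and the fit was repeated without them. The median mitochondrial share per cell was 3.43% ± 0.227 in collagen and 2.35% ± 0.717 in Matrigel (SD, n = 4 mice each). It was higher in collagen in 4 of 4 mice (exact paired permutation test, two-sided, p = 0.125, the smallest that 4 pairs allow), and its part in the results below was not tested. The pools of day 0 and day 3 shared 7 cell barcode sequences, and those of day 0 and day 5 shared 0.

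Collagen I is the fibrous protein of stroma, which cells bind through integrins such as alpha2 beta1 and through discoidin receptors, whereas Matrigel is an extract rich in laminin and collagen IV that resembles the basement membrane around normal epithelium. Type I interferon signalling ends in factors that bind an element of repeated GAAA letters and switch on antiviral and antigen presentation genes. The factor NRF2, released from KEAP1 under oxidative or electrophilic stress, binds antioxidant elements and switches on glutathione, thioredoxin and heme breakdown genes.

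Promoters of genes from the interferon and NRF2 lists are shown because the called members of each differed in 1 direction. Each line gives a window of 100 bases before the gene start, placed around a match and so at a distance from the start that differs between genes, from RefSeq on build GRCm38.p6, 5′ to 3′ on the strand of the gene. Capitals mark the letters GAAA, any 2 bases and GAAA in the first 3 and TGACNNNGC in the other 4, found on either strand (a match on the other strand is printed as its reverse complement) with overlapping matches joined. The genes are Isg15 (chr4:156200830-156200929, minus strand), Ifit3 (chr19:34583362-34583461, plus), Bst2 (chr8:71537542-71537641, minus), Gclm (chr3:122245377-122245476, plus), Txnrd1 (chr10:82859068-82859167, plus), Prdx1 (chr4:116685420-116685519, plus) and G6pdx (chrX:74428884-74428983, minus).
Isg15: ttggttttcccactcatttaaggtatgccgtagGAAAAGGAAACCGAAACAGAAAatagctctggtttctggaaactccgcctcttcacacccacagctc
Ifit3: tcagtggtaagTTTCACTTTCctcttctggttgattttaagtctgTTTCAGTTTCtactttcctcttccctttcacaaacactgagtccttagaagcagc
Bst2: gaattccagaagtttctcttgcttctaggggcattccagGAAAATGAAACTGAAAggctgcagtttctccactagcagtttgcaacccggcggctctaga
Gclm: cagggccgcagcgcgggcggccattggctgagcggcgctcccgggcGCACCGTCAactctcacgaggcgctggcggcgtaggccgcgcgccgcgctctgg
Txnrd1: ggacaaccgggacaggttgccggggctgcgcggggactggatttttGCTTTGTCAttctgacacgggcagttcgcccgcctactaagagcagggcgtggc
Prdx1: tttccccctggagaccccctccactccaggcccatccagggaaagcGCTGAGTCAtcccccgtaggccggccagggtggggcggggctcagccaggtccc
G6pdx: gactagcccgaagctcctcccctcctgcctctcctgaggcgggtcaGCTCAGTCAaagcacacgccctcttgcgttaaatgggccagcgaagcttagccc

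The letters of the first kind stood in the 300-base promoter window (250 bases before to 50 after the start) of 10 of the 17 interferon response genes that had one in the table, against 3.99% of all 27025 genes with a promoter. Among genes called higher in collagen 6.42% held them, among genes called lower 3.70%, and among all tested genes 3.66%. Of 13 MHC class I and immunoproteasome genes 3 held them, and of 19 NRF2 genes 0. The letters TGACNNNGC, part of which also occurs in the AP-1 element TGACTCA, stood in 9 of 19 NRF2 genes and in 13.99% of all genes with a promoter. They also stood in 4 of 17 interferon response genes and 3 of 13 MHC class I and immunoproteasome genes. They were in 14.8% of genes called higher, 20.8% of genes called lower and 17.2% of genes tested. A match is a run of letters and not a measured binding site.

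The matrix difference was wide. Of 11587 genes tested, 1492 (12.9%) were higher and 1473 (12.7%) lower in collagen at an adjusted p under 0.05, and the median log2 fold change over all of them was 0.01. The change exceeded a factor of 2 in 444 genes that were higher and 160 that were lower. For 2868 of the 2965 called genes, all 4 mice moved the same way. The sums of the gels did not overlap in 1804 of the 11587 tested genes and in 1445 of the 2965 called genes. A lack of overlap, given below for single genes, is thus common among called genes. Leaving out mouse 1, 2, 3 or 4 gave 1368, 1391, 1878 or 2923 called genes, of which 1322, 1327, 1752 or 2476 were among the 2965. Without the mouse as a block, 254 were higher (2.19%) and 143 lower (1.23%), all of them among the 2965. The share called in either direction was 25.6%, and a list with about that share of its members called does not stand out from the background.

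**Figure D1:**
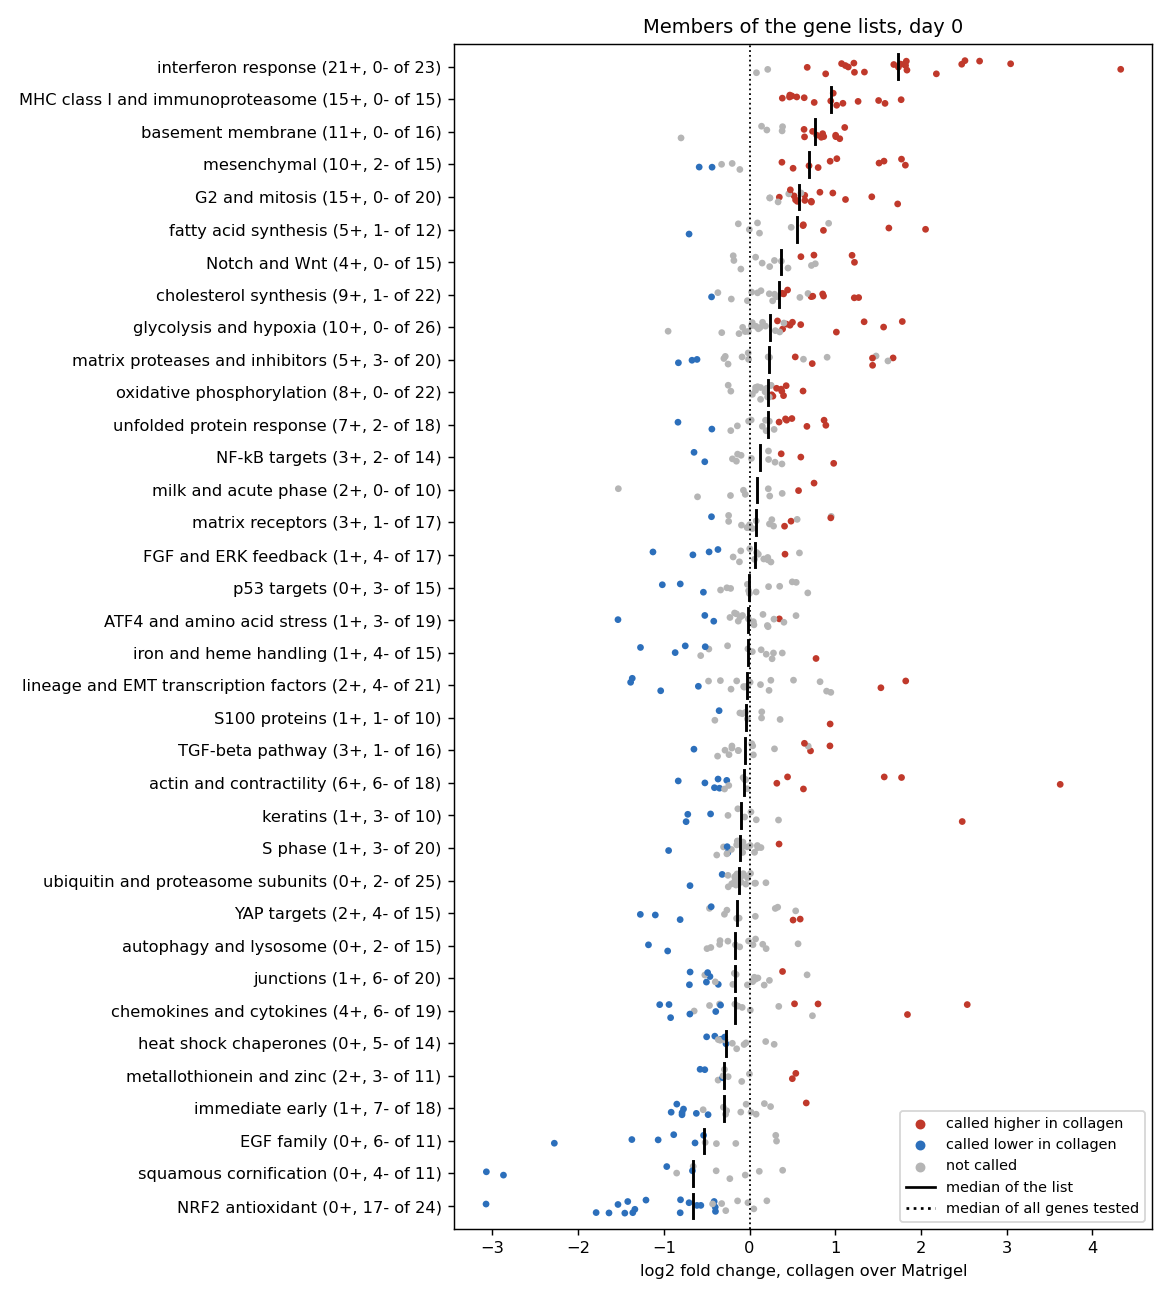
Log2 fold change of collagen over Matrigel (horizontal axis) for every tested member of the 36 gene lists, 1 point per gene, with lists ordered by median from the highest at the top. Red points were called higher in collagen, blue points called lower, grey points not called, black bars are list medians, and the counts beside each name give members called higher (+) and lower (-) of those tested. The interferon list has its median at 1.74 and the NRF2 list at -0.66.

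Interferon response genes were higher in collagen in all 4 mice. Of 24 listed members 23 could be tested; 21 of these were higher and 0 lower, beside 12.9% and 12.7% of all genes, and the median log2 fold change was 1.74. Ifit2 and Rsad2 were not called and Mx1 was too low to test. Within single mice the median log2 ratio of the list was 1.22, 1.54, 1.62 and 2.30 for mice 1 to 4. Without the block 8 of the 23 passed.

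Ifitm3 encodes a membrane protein that blocks virus entry (chromosome 7, 141009586 to 141010770, GRCm38). It had 1179, 927, 728 and 576 CPM in collagen, against 261, 217, 165 and 116 CPM in Matrigel (log2 fold change 2.18 with SE 0.09, adjusted p = 9.68e-06). The mice kept the same order in both gels, and the lowest collagen sum was above the highest Matrigel sum. Isg15, a ubiquitin-like modifier made in response to interferon (chromosome 4, 156199424 to 156200818), had 538, 345, 426 and 227 CPM in collagen, against 151, 75.2, 137 and 73.5 CPM in Matrigel (log2 fold change 1.82 with SE 0.11, adjusted p = 0.000105). Bst2, which tethers budding virus particles to the cell surface, had 507, 348, 384 and 308 CPM in collagen, against 169, 108, 115 and 60.8 CPM in Matrigel (1.83 on the log2 scale, SE 0.13, adjusted p = 0.000116). These 3 genes did not overlap between the gels.

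Transcription factors of the pathway were higher as well. Irf7, which amplifies interferon production, had 83.7, 42.3, 44.5 and 33.2 CPM in collagen and 13.6, 8.57, 8.53 and 1.82 CPM in Matrigel (log2 fold change 2.68 with SE 0.22, adjusted p = 0.000257). The groups did not overlap. Irf9 and Stat2 were also called higher. Zbp1, a sensor of left-handed nucleic acid, had 52.4, 31.9, 43.1 and 24.9 CPM in collagen against 6.76, 3.97, 5.86 and 1.97 CPM in Matrigel (3.05, SE 0.16, adjusted p = 5.33e-05). Ifit3, a protein of the antiviral IFIT complex with close paralogs, had 21.6, 12.9, 13.8 and 11.1 CPM in collagen and at most 1.43 CPM in Matrigel (4.33, SE 0.39, adjusted p = 0.000377). Members of the oligoadenylate synthetase-like family, whose 2 mouse copies are related in sequence, were higher too: Oasl2 by 2.51 (SE 0.21, adjusted p = 0.000252) and Oasl1 by 1.99 on the log2 scale (SE 0.19, adjusted p = 0.000512).

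The spread over single cells was measured after each cell was thinned to 5000 UMIs. Summed over the interferon list, the median cell held 7, 5, 5 and 4 UMIs in collagen and 3, 2, 2 and 1 UMIs in Matrigel. Cells with none of these UMIs made up 9.09, 7.53, 6.35 and 5.88% in collagen and 15.3, 24.7, 23.99 and 31.4% in Matrigel. At the upper end, 1 cell in 10 had more than 48.4, 33, 18.5 and 24.8 UMIs in collagen and more than 13.8, 9, 7 and 5 UMIs in Matrigel. Both the lower and the upper part of the distribution were thus displaced. Ifitm3 was detected in 61.3% ± 4.77 of thinned cells in collagen and 38.6% ± 7.20 in Matrigel, and Isg15 in 38.8% ± 7.02 and 20.9% ± 6.33 (SD, n = 4 mice each). Unthinned, Ifitm3 was seen in 78.8% of collagen and 61.8% of Matrigel cells. Both exact paired permutation tests gave p = 0.125, the smallest possible here. Macrophages of the pool carry these RNAs widely (Ifitm3 in 95.3% and Isg15 in 89.7% of 107 thinned cells, median 14963 UMIs before thinning), so they give no background for them. The part of RNA from macrophages in these differences was not tested.

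**Figure D2:**
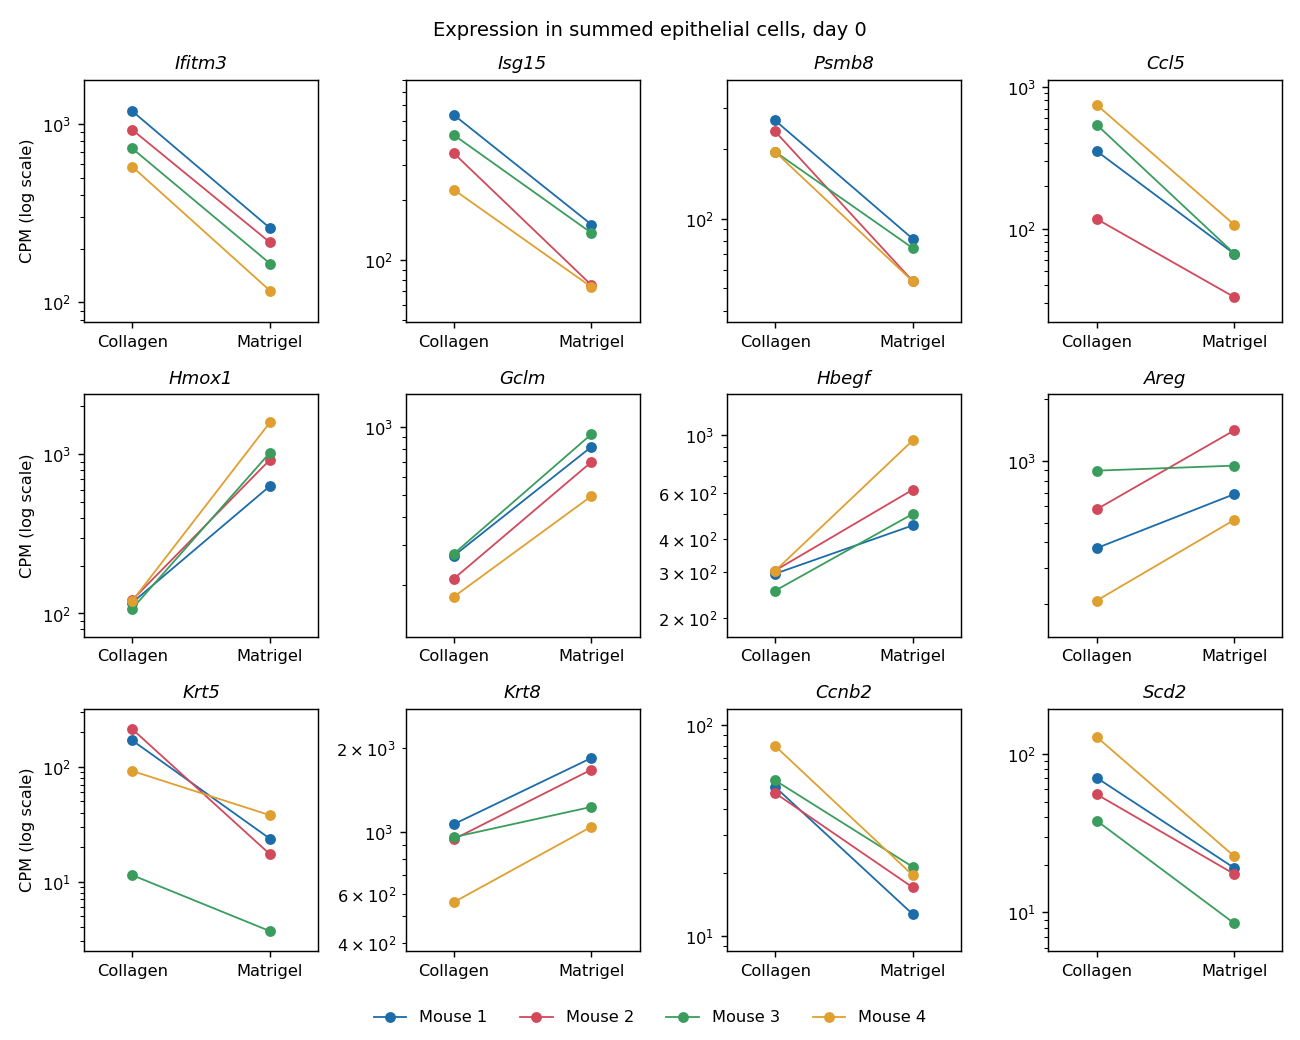
CPM (vertical axes, log scale, each panel with its own range) of 12 genes in the summed epithelial cells of day 0, with collagen at the left and Matrigel at the right of each panel. Each line joins the 2 sums of 1 mouse; Ifitm3 lies at 576 to 1179 CPM in collagen and 116 to 261 CPM in Matrigel, and Hmox1 at 107 to 122 CPM in collagen and 632 to 1588 CPM in Matrigel.

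Antigen presentation genes were higher as a whole list. All 15 listed members of MHC class I presentation and the immunoproteasome could be tested and all 15 were called higher, beside 12.9% of all genes. The median log2 fold change was 0.95, and 7 were called without the block and 11 without mouse 1 or without mouse 2. The catalytic immunoproteasome subunits led. Psmb8 (chromosome 17, 34197721 to 34201454) had 266, 238, 194 and 194 CPM in collagen, against 81.7, 53.6, 74.5 and 53.5 CPM in Matrigel (log2 fold change 1.77 with SE 0.12, adjusted p = 0.000116). Psmb9 had 65.9, 41.7, 45.8 and 43.4 CPM in collagen and 19.4, 12.5, 19.5 and 14.4 CPM in Matrigel (1.58, SE 0.12, adjusted p = 0.000227). The peptide transporter subunit Tap2 had 68.3, 70.1, 66.5 and 42.0 CPM in collagen and 28.5, 20.3, 23.0 and 15.01 CPM in Matrigel (1.51, SE 0.12, adjusted p = 0.000218). Psme1, part of the proteasome activator, rose by 1.09 (SE 0.10, adjusted p = 0.00036). No sum of these 4 genes overlapped between the gels.

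B2m and H2-K1, which encode chains of the class I molecule itself, had smaller log2 fold changes than Psmb8, Psmb9, Tap2 and Psme1. The genes were not tested against each other, and the list member H2-D1 was also called higher. B2m, the invariant light chain of class I, had 1046, 877, 1373 and 888 CPM in collagen and 599, 452, 1035 and 680 CPM in Matrigel (log2 fold change 0.64 with SE 0.12, adjusted p = 0.00606). The heavy chain H2-K1 had 1668, 1861, 2170 and 1598 CPM in collagen and 1133, 993, 1651 and 1257 CPM in Matrigel (0.55, SE 0.11, adjusted p = 0.00939). Both were higher in 4 of 4 mice although the groups overlapped, since mouse 3 had high values in both gels. The H2-K1 call was lost without mouse 1 (0.55, adjusted p = 0.0507) and without mouse 2 (0.43, adjusted p = 0.0571), and H2-K1 shares sequence with other class I genes, among which reads could be divided. Constitutive proteasome and ubiquitin genes, listed separately, gave 0 higher and 2 lower of 25, beside 12.9% and 12.7% of all genes, with a median of -0.12. In thinned cells, Psmb8 was detected in 49.1% ± 5.62 in collagen and 21.5% ± 4.09 in Matrigel (exact paired permutation p = 0.125, the smallest possible).

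Ccl5, a chemokine that attracts T cells and monocytes (chromosome 11, 83525778 to 83530518), was among the genes with the highest fold changes. It had 352, 117, 540 and 745 CPM in collagen, against 66.6, 33.0, 66.8 and 107 CPM in Matrigel (log2 fold change 2.54 with SE 0.17, adjusted p = 0.000116). Every collagen sum exceeded every Matrigel sum. The share of thinned cells with a Ccl5 UMI was 12.2% ± 1.66 in collagen and 8.63% ± 1.31 in Matrigel. Among cells with the RNA, the mean was 16.5, 6.06, 15.9 and 35.2 UMIs in collagen and 5.66, 2.60, 3.83 and 8.10 UMIs in Matrigel. Counted at 1 UMI or more, the gels thus differed more in the UMIs of the positive cells than in their share. Unthinned, these shares were 24.4% in collagen and 19.3% in Matrigel. Thinned cells with at least 2 Ccl5 UMIs made up 7.10% ± 2.40 in collagen and 2.69% ± 0.909 in Matrigel. At that cut the shares lay further apart, so the contrast between share and level depends on the cut. After thinning, 93.5% of the 107 macrophages and 9.18% of the 98 4T1 cells had a Ccl5 UMI, against 95.3% and 51.0% unthinned. The part of free macrophage RNA in the share of epithelial cells with 1 UMI was not tested.

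The other chemokines and cytokines did not share this direction. Of 25 listed, 19 were tested, 4 were higher (Ccl5, Cxcl3, Cxcl14 and Il18) and 6 lower (Cxcl1, Cxcl16, Csf3, Tnf, Il23a and Tslp), beside 12.9% and 12.7% of all genes. Cxcl1, which attracts neutrophils, had 271, 541, 787 and 226 CPM in collagen and 554, 938, 1677 and 382 CPM in Matrigel (log2 fold change -0.92 with SE 0.09, adjusted p = 0.000619). The groups overlapped because mice differed several-fold, and within each mouse the collagen value was the lower. Il11, a cytokine of the interleukin-6 family, was higher in collagen by 1.82 (SE 0.44, adjusted p = 0.0177), with 30.0, 119, 175 and 20.8 CPM in collagen and 18.6, 8.09, 43.4 and 13.7 CPM in Matrigel. Its call was lost without mouse 3 (adjusted p = 0.0559) and in DESeq2 (adjusted p = 0.056), and without mouse 2 its log2 fold change was 1.20. Without mouse 1 the list gave 2 higher and 2 lower. Members of the NF-kB target list went both ways, with 3 higher and 2 lower of 14, a share near the 25.6% of all genes.

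Antioxidant genes under NRF2 were lower in collagen. Of 24 listed, all were tested; 17 were lower and 0 higher, beside 12.7% and 12.9% of all genes, with a median log2 fold change of -0.66 (7 lower without the block). The medians in mice 1 to 4 were -0.71, -0.44, -0.69 and -0.91. Hmox1, the oxygenase that opens heme to biliverdin, carbon monoxide and iron (chromosome 8, 75093621 to 75100589), had 117, 122, 107 and 120 CPM in collagen, against 632, 925, 1025 and 1588 CPM in Matrigel (-3.07 on the log2 scale, SE 0.19, adjusted p = 0.000105). The collagen values lay close together, and the Matrigel values were several times as high and differed more between mice.

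Glutathione synthesis showed the same direction. Gclm, the modifier subunit of glutamate-cysteine ligase (chromosome 3, 122245557 to 122270732), had 269, 213, 275 and 178 CPM in collagen, against 817, 701, 929 and 495 CPM in Matrigel (log2 fold change -1.64 with SE 0.09, adjusted p = 5.33e-05). The catalytic subunit Gclc had 61.6, 54.9, 53.1 and 67.4 CPM in collagen and 144, 131, 144 and 234 CPM in Matrigel (-1.42, SE 0.11, adjusted p = 0.00022). Slc7a11, the cystine importer, had 15.1, 12.9, 11.03 and 5.08 CPM in collagen and 32.0, 35.2, 40.9 and 24.1 CPM in Matrigel (-1.53, SE 0.18, adjusted p = 0.00103). None of these 3 overlapped. In the thioredoxin arm, Srxn1, which repairs over-oxidised peroxiredoxin, fell by 1.79 (SE 0.13, adjusted p = 0.000158) and the reductase Txnrd1 by 1.21 (SE 0.08, adjusted p = 0.000116). The quinone reductase Nqo1 fell by 1.34 (SE 0.17, adjusted p = 0.00129), with 43.1, 42.9, 55.8 and 18.0 CPM in collagen and 120, 79.8, 117 and 79.2 CPM in Matrigel. Osgin1, an NRF2 target named for oxidative stress, fell by 1.36 (SE 0.16, adjusted p = 0.000935) although its groups overlapped. The 7 members not called were Gsr, Gstm1, Taldo1, Tkt, Sod1, Keap1 and Bach1.

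Genes next to this pathway gave a mixed picture. Of 15 iron and heme genes 4 were lower and 1 higher, near the background, and 6 were lower without mouse 4. Slc48a1, a heme transporter, had 66.8, 40.4, 99.6 and 28.6 CPM in collagen and 165, 125, 170 and 80.7 CPM in Matrigel (log2 fold change -1.27 with SE 0.14, adjusted p = 0.000782). The ferritin light chain Ftl1, a gene with processed copies that could take reads, fell by 0.75 (SE 0.10, adjusted p = 0.00159) and the transferrin receptor Tfrc by 0.87 (SE 0.10, adjusted p = 0.00116). Sqstm1, an autophagy receptor, had 210, 220, 264 and 134 CPM in collagen and 359, 421, 480 and 325 CPM in Matrigel (-0.95, SE 0.10, adjusted p = 0.000697). Heat shock chaperones gave 5 lower and 0 higher of 14, beside 12.7% and 12.9% of all genes, a count that was 0 without mouse 3, 1 without mouse 2 and 2 without mouse 1. Targets of p53, a protein that large T antigen binds, gave 3 lower (Cdkn1a, Plk2 and Aen) and 0 higher of 15, a share near the 25.6% of all genes. Without mouse 2 they gave 2 higher and 2 lower, and in thinned cells 2 higher and 3 lower.

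In single cells, Hmox1 was detected in 38.6% ± 10.99 of thinned collagen cells and 77.2% ± 8.04 of Matrigel cells (difference -38.6 points, lower in collagen in 4 of 4 mice, exact paired permutation p = 0.125, the smallest possible). Cells with the RNA held on average 1.95, 2.00, 1.78 and 1.82 UMIs in collagen and 5.63, 6.53, 6.99 and 10.1 UMIs in Matrigel. Share and level per positive cell were therefore both lower in collagen. Without thinning the shares were 71.4% and 92.1%. Of 98 thinned 4T1 cells in the pool 4 had the RNA (4.08%, exact 95% interval 1.12 to 10.1%, counting error only). Unthinned, at a median of 83628 UMIs, 63.3% of the 4T1 cells had it. Macrophages carry the RNA widely (93.5% of 107 thinned cells). The share for Gclm was 55.8% ± 7.85 in collagen and 78.4% ± 2.46 in Matrigel (exact paired permutation p = 0.125).

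**Figure D3:**
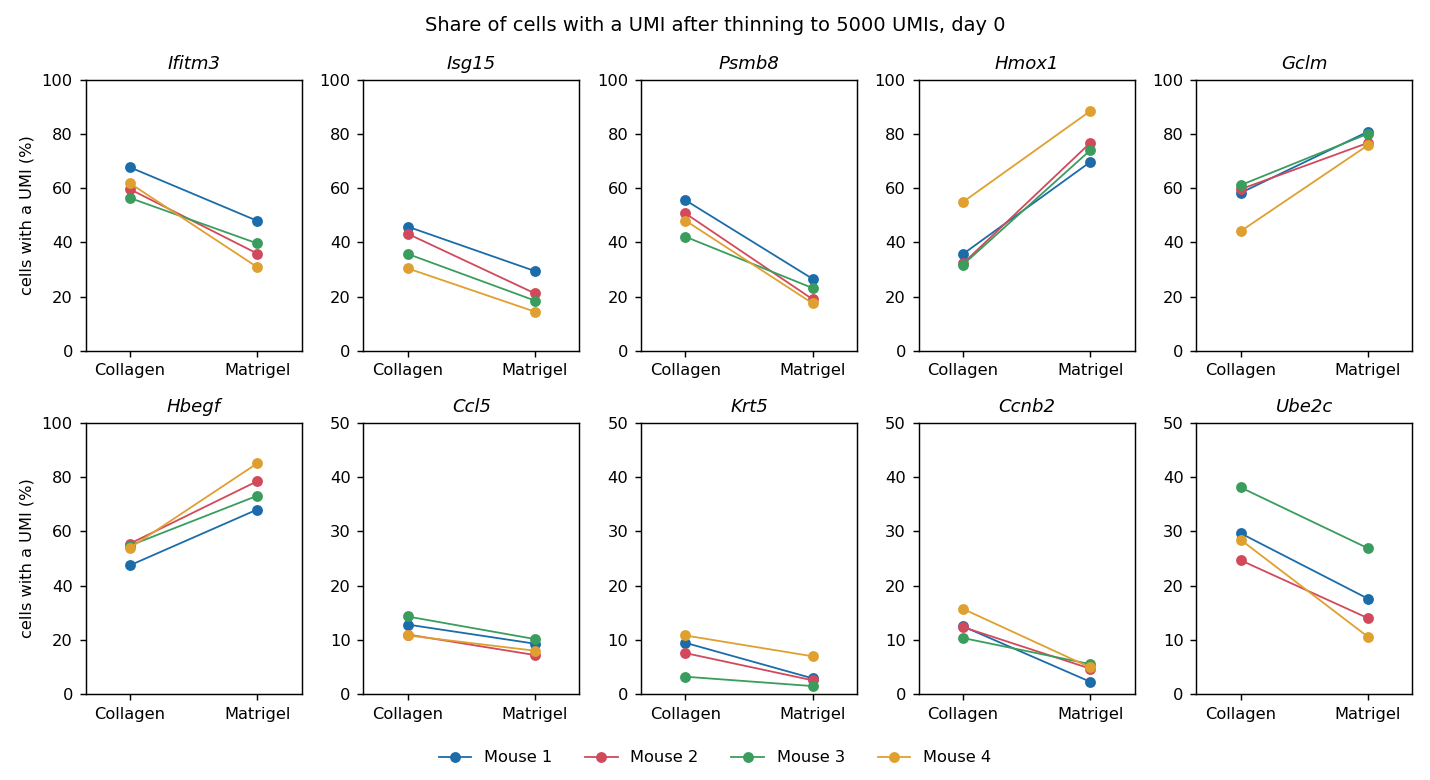
Percentage of kept cells with at least 1 UMI of each gene (vertical axes) after thinning every cell to 5000 UMIs, with collagen left and Matrigel right in each panel and 1 line per mouse. The top row and Hbegf run to 100% and the others to 50%; Hmox1 lies at 31.8 to 54.9% in collagen and 69.6 to 88.4% in Matrigel.

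Growth factors of the EGF family were lower in collagen where called. Of 11 members of the list 6 were lower and 0 higher, beside 12.7% and 12.9% of all genes, with a median of -0.54. The lower members were the ligands Areg, Ereg, Hbegf, Btc and Epgn, and Errfi1, which is not a ligand. The ligands Tgfa and Nrg1 and the receptor genes Egfr, Erbb2 and Erbb3 were not called. The count was 1 without the block, 3 without mouse 1 and 4 without mouse 2. Hbegf, a membrane-anchored ligand of EGFR, had 295, 303, 254 and 303 CPM in collagen, against 452, 619, 500 and 956 CPM in Matrigel (log2 fold change -1.07 with SE 0.15, adjusted p = 0.00224). Epgn, or epigen, had 10.8, 5.68, 2.41 and 14.8 CPM in collagen and 39.8, 21.9, 21.3 and 93.1 CPM in Matrigel (-2.28, SE 0.19, adjusted p = 0.000256). In neither gene did the gels overlap.

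Areg, the amphiregulin ligand needed for mammary duct growth, had 375, 580, 897 and 208 CPM in collagen and 688, 1411, 949 and 515 CPM in Matrigel (log2 fold change -0.88 with SE 0.19, adjusted p = 0.0112). It was lower in collagen in 4 of 4 mice, least so in mouse 3, and without mouse 2 it was not called (adjusted p = 0.06). Ereg was lower by 0.64 (SE 0.16, adjusted p = 0.023), and without mouse 1 it was not called (adjusted p = 0.104). Hbegf was detected in 52.9% ± 3.68 of thinned collagen cells and 76.2% ± 7.31 of Matrigel cells (exact paired permutation p = 0.125, the smallest possible), against 1 of 107 macrophages (0.935%).

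Immediate early genes, which ERK signalling can switch on, were lower where called, with 1 exception. Of 18 tested 7 were lower and 1 higher (3 and 0 without the block), beside 12.7% and 12.9% of all genes, while Fos, Jun and Egr1 were not called. Dusp1, a phosphatase that acts on MAP kinases, had 65.3, 88.1, 54.5 and 54.0 CPM in collagen and 98.2, 111, 145 and 119 CPM in Matrigel (log2 fold change -0.85 with SE 0.16, adjusted p = 0.00797). Myc had 140, 109, 117 and 89.5 CPM in collagen and 197, 214, 210 and 163 CPM in Matrigel (-0.79, SE 0.10, adjusted p = 0.00127). Fosl1, the AP-1 subunit FRA-1, had 138, 184, 219 and 113 CPM in collagen and 339, 354, 478 and 247 CPM in Matrigel (-1.13, SE 0.09, adjusted p = 0.00022). These 3 did not overlap between the gels. A list of FGF receptors, ligands, feedback inhibitors and target factors gave 4 lower (Dusp5, Spry2, Fosl1 and Phlda1) and 1 higher (Etv4) of 17, near the 25.6% of all genes, 2 lower without mouse 1, and 0 higher without the cells near 4T1.

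A list of YAP, its partners and its targets, a pathway that responds to stiffness and cell shape, had 4 lower (Cyr61, F3, Amotl2 and the YAP relative Wwtr1) and 2 higher (Axl and Arhgef17) of 15, beside 12.7% and 12.9% of all genes. The higher count was 1 without mouse 1, 2 or 3 and without the cells near 4T1, and the lower count 1 without the block. Cyr61, a matricellular protein, had 186, 225, 126 and 204 CPM in collagen, against 342, 515, 422 and 507 CPM in Matrigel (log2 fold change -1.27 with SE 0.13, adjusted p = 0.000634), with no overlap. F3, the starter of blood clotting, fell by 1.10 (SE 0.11, adjusted p = 0.000565). Ctgf and Ankrd1, other targets often used as readouts, were not called. Id1 and Id3, targets of BMP signalling that block helix-loop-helix factors, fell by 1.39 (SE 0.20, adjusted p = 0.00253) and 1.37 (SE 0.17, adjusted p = 0.00124). Id1 had 66.0, 60.9, 38.3 and 133 CPM in collagen and 193, 178, 155 and 190 CPM in Matrigel. Mouse 4 was high among the collagen sums of Id1, which still lay below every Matrigel sum.

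**Figure D4:**
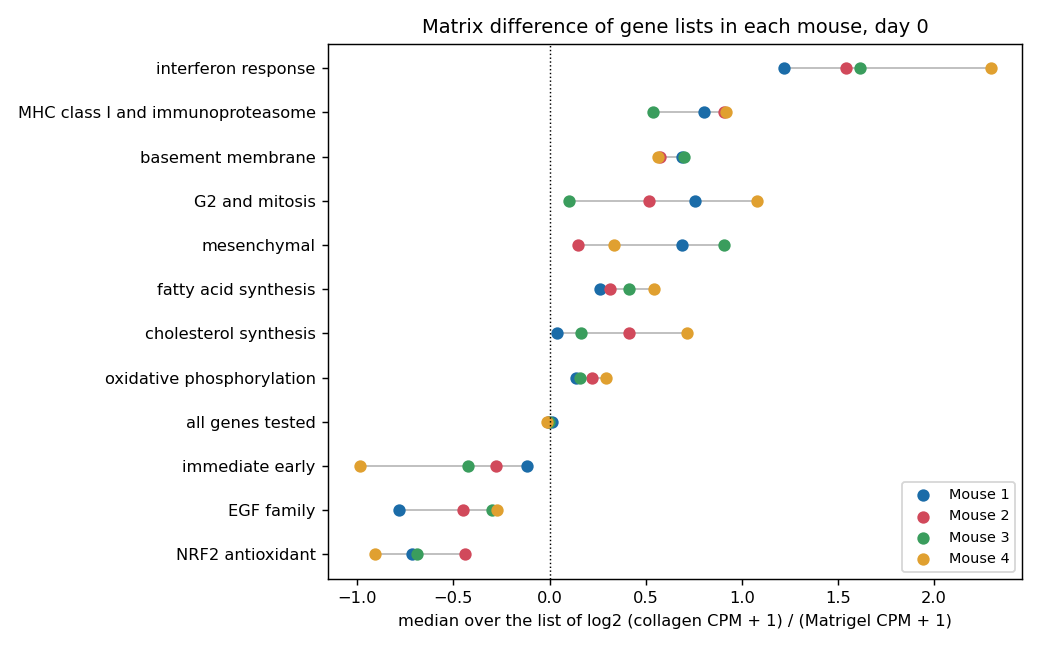
Median over list members of the log2 ratio of collagen to Matrigel (CPM + 1) within each mouse (horizontal axis), 1 point per mouse, for 11 lists and for all genes tested. All 4 mice lie above 0 for interferon response (1.22 to 2.30) and below 0 for NRF2 antioxidant genes (-0.91 to -0.44), and G2 and mitosis genes spread from 0.10 in mouse 3 to 1.08 in mouse 4.

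Keratins and lineage factors differed gene by gene. Of 10 tested keratins 1 was higher and 3 lower, beside 12.9% and 12.7% of all genes, and the median was -0.10. Without mouse 1 or without mouse 2 the counts were 1 and 1. Krt5, a keratin of basal mammary cells (chromosome 15, 101707070 to 101712898), had 171, 214, 11.4 and 92.3 CPM in collagen, against 23.7, 17.3, 3.69 and 37.9 CPM in Matrigel (log2 fold change 2.48 with SE 0.34, adjusted p = 0.00217). Mouse 3 was low in both gels, so the groups overlapped, and within every mouse collagen was higher. The basal partner of Krt5, Krt14, was not called (-0.25, SE 0.19, adjusted p = 0.365), with 1128, 895, 563 and 928 CPM in collagen and 996, 714, 1083 and 1387 CPM in Matrigel. Trp63, the master factor of basal epithelium, was higher by 1.82 (SE 0.26, adjusted p = 0.00233), with 32.2, 35.04, 3.79 and 41.1 CPM in collagen and 12.7, 4.44, 1.53 and 13.2 CPM in Matrigel. Sox10, found in basal and progenitor-like mammary cells, rose by 1.53 (SE 0.17, adjusted p = 0.000814). None of these calls was kept without the block.

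Of the luminal keratins Krt8 and Krt18 were lower, and Krt7 and Krt19 were not called. Krt8 had 1066, 942, 958 and 560 CPM in collagen and 1844, 1675, 1231 and 1045 CPM in Matrigel (log2 fold change -0.72 with SE 0.11, adjusted p = 0.00289). Krt18 fell by 0.45 (SE 0.09, adjusted p = 0.0107), a call lost without mouse 1 (adjusted p = 0.0834) and without mouse 2 (adjusted p = 0.0647). Cdh1, or E-cadherin, had 73.2, 85.9, 65.5 and 97.4 CPM in collagen and 115, 138, 84.7 and 207 CPM in Matrigel (-0.70, SE 0.11, adjusted p = 0.00402). Of 20 junction genes 6 were lower and 1, Pkp1, higher, beside 12.7% and 12.9% of all genes. They were 3 and 0 without mouse 1, 5 and 2 without the cells near 4T1, and 0 and 0 without the block. P-cadherin (Cdh3) was under 7 CPM in every sum and not called.

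Krt5 was found in few cells. Its share of thinned cells was 9.43, 7.53, 3.17 and 10.8% in collagen and 2.88, 2.51, 1.45 and 6.94% in Matrigel (exact paired permutation p = 0.125, the smallest possible). Without thinning, it was 12.8, 10.3, 3.17 and 10.8% in collagen and 7.03, 5.02, 3.76 and 13.1% in Matrigel. These unthinned shares were lower in collagen in mice 3 and 4 (exact paired permutation p = 0.5). Krt5-positive cells held on average 9.36, 10.9, 1.75 and 5.91 UMIs in collagen and 2.89, 2.71, 2.00 and 3.15 UMIs in Matrigel. Of the 107 macrophages 0 had a Krt5 UMI after thinning, which allows a share of up to 2.80% (counting error only). Unthinned, 0.935% of the macrophages had the RNA. Acta2 and Tagln, contractile genes of myoepithelial cells and fibroblasts, followed mice 1 and 2. Acta2 had 96.6, 65.4, 0 and 0 CPM in collagen and 7.72, 4.44, 0.127 and 0.303 CPM in Matrigel, so it was higher in collagen in 2 of 4 mice. Its fitted log2 fold change of 3.62 (adjusted p = 0.000257) rests on those mice, and DESeq2 gave 2.32 (adjusted p = 0.128). Tagln had 47.6, 65.0, 0.689 and 11.5 CPM in collagen and 15.2, 11.9, 0.127 and 6.67 CPM in Matrigel (1.77, SE 0.25, adjusted p = 0.00222).

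Many mesenchymal genes were higher in collagen. Of 15 tested 10 were higher and 2 lower, beside 12.9% and 12.7% of all genes, with a median of 0.69. Without the block the count was 2, and without mouse 1, 2 or 3 it was 4, 6 or 5. Without the cells near 4T1, 8 were higher and 3 lower, with a median of 0.46. Vim, the intermediate filament vimentin (chromosome 2, 13573927 to 13582826), had 610, 530, 361 and 1348 CPM in collagen, against 195, 247, 101 and 236 CPM in Matrigel (log2 fold change 1.77 with SE 0.19, adjusted p = 0.000782). Without the 39 cells near the 4T1 profile its log2 fold change was 1.04 (adjusted p = 0.0191), and 96.9% of thinned 4T1 cells had the RNA. Lgals1, a galectin abundant in stroma, rose by 1.51 (SE 0.19, adjusted p = 0.00124), and by 1.38 without those cells. Fn1, fibronectin, went the other way, with 247, 421, 292 and 306 CPM in collagen and 417, 535, 365 and 583 CPM in Matrigel (-0.59, SE 0.12, adjusted p = 0.00888), a call lost in thinned cells (adjusted p = 0.0643). Postn, or periostin, also among the fibroblast markers, had 106, 62.5, 27.6 and 34.6 CPM in collagen and 18.5, 8.25, 3.95 and 56.1 CPM in Matrigel (1.82, SE 0.52, adjusted p = 0.0341). For Postn, mouse 4 was opposed to the other mice, and without mouse 1, 2 or 3 the adjusted p was 0.134, 0.14 or 0.0769, while without mouse 4 the log2 fold change was 2.70. Factors of epithelial-mesenchymal transition in the list (Snai1, Snai2, Zeb1, Zeb2 and Twist1) were not called. The fibroblast marker sum was also higher in collagen in its range (90.4 to 158 CPM against 25.1 to 107 CPM in Matrigel), and its part in these differences was not tested.

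Most tested components of the basement membrane were higher in collagen. Of 16 tested 11 were higher and 0 lower, beside 12.9% and 12.7% of all genes, with a median of 0.76, and in single mice the median ratio lay between 0.57 and 0.70. The count was 2 without the block, 5 without mouse 1, 5 without mouse 2 and 9 without the cells near 4T1 (median 0.68). Agrn, a heparan sulfate proteoglycan, had 29.1, 30.0, 21.7 and 28.6 CPM in collagen, against 17.0, 13.5, 9.42 and 14.6 CPM in Matrigel (log2 fold change 1.01 with SE 0.13, adjusted p = 0.00166). Hspg2, or perlecan, had 26.7, 25.6, 22.7 and 32.3 CPM in collagen and 16.7, 17.3, 13.5 and 16.5 CPM in Matrigel (0.74, SE 0.12, adjusted p = 0.00457). The gels did not overlap for either proteoglycan.

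Lama3, the alpha chain of the laminin of epithelial hemidesmosomes, rose by 1.00 (SE 0.28, adjusted p = 0.0294), with 36.1, 43.6, 117 and 74.7 CPM in collagen and 23.1, 24.9, 24.1 and 62.0 CPM in Matrigel. Its call was lost without mouse 1 (adjusted p = 0.0511) and without mouse 2 (adjusted p = 0.0801). Col17a1, a hemidesmosome collagen, rose by 1.05 (SE 0.20, adjusted p = 0.00751). Col5a3, a fibrillar chain outside the list, had 29.6, 14.5, 34.5 and 66.9 CPM in collagen and 4.58, 3.49, 8.66 and 12.9 CPM in Matrigel (2.30, SE 0.16, adjusted p = 0.000116). Every collagen sum of Col5a3 exceeded every Matrigel sum.

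Receptors for these matrices were called about as often as other genes. Of 17 tested 3 were higher (Itgb5, Dag1 and Bcam) and 1 lower (Cd44), beside 12.9% and 12.7% of all genes. The counts were 3 and 4 without the cells near 4T1, 1 and 1 without mouse 1 or without mouse 3, 1 and 0 without mouse 2, and 0 and 0 in thinned cells. The collagen receptor subunit Itga2 had 76.9, 85.9, 59.6 and 48.5 CPM in collagen and 80.1, 96.5, 34.9 and 55.0 CPM in Matrigel (log2 fold change 0.08 with SE 0.15, adjusted p = 0.739). Its sign turned without mouse 3 (-0.14). The discoidin receptor Ddr1 had a log2 fold change of -0.09 (SE 0.16, adjusted p = 0.694), which turned to 0.06 without mouse 4 and to 0.08 in thinned cells. Itgb1, the shared beta subunit, had 538, 533, 438 and 618 CPM in collagen and 597, 574, 512 and 871 CPM in Matrigel (-0.24, SE 0.09, adjusted p = 0.0825). It passed without the cells near 4T1 (-0.26, adjusted p = 0.0469). Cd44, the hyaluronan receptor, fell by 0.44 (SE 0.10, adjusted p = 0.0147), a call lost without mouse 2 (adjusted p = 0.0576).

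A list of matrix proteases, their inhibitors and the urokinase receptor had 5 higher (Mmp10, Mmp11, Mmp14, Plat and the inhibitor Timp1) and 3 lower (Adamts1, Plau and Plaur) of 20, beside 12.9% and 12.7% of all genes. Without mouse 1 it gave 3 and 2, and without the block 0 and 0. Mmp14, the membrane-bound collagenase, had 77.9, 102, 54.5 and 97.4 CPM in collagen, against 29.9, 41.7, 12.99 and 44.4 CPM in Matrigel (log2 fold change 1.43 with SE 0.14, adjusted p = 0.000617), with no overlap. Plau, the urokinase, fell by 0.67 (SE 0.11, adjusted p = 0.00457), with 36.3, 35.4, 18.9 and 45.2 CPM in collagen and 50.6, 51.6, 37.0 and 77.6 CPM in Matrigel. Its receptor Plaur fell by 0.83 (SE 0.12, adjusted p = 0.00293), with 234, 231, 435 and 198 CPM in collagen and 401, 389, 615 and 493 CPM in Matrigel. Among actin and contractility genes 6 were higher and 6 lower of 18, beside 12.9% and 12.7% of all genes. The counts were 1 and 2 without mouse 1 or without mouse 2, and 0 and 0 without the block.

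Most mitotic genes were higher in collagen. Of 20 G2 and mitosis genes 15 were higher and 0 lower, beside 12.9% and 12.7% of all genes, with a median of 0.58. Of 20 S phase genes 1 was higher and 3 lower, near the 25.6% of all genes in either direction, with a median of -0.11. The S phase counts were 0 and 1 without mouse 1, 2 or 3, and 1 and 1 without the cells near 4T1. The mitotic count was 9 without the cells near 4T1 (median 0.44), 8 in thinned cells, 1 without the block, 4 without mouse 1 and 5 without mouse 2. Ccnb2, a cyclin of the G2 to M transition (chromosome 9, 70407692 to 70421547), had 51.0, 47.7, 54.8 and 79.8 CPM in collagen, against 12.7, 17.0, 21.3 and 19.4 CPM in Matrigel (log2 fold change 1.73 with SE 0.14, adjusted p = 0.000252). Ube2c, which marks cyclins for degradation, had 200, 295, 339 and 210 CPM in collagen and 74.3, 101, 245 and 40.0 CPM in Matrigel (1.43, SE 0.24, adjusted p = 0.00462). The kinase Plk1 rose by 1.12 (SE 0.24, adjusted p = 0.0115).

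Mki67, the proliferation antigen, had 120, 114, 118 and 138 CPM in collagen and 68.9, 86.3, 125 and 66.9 CPM in Matrigel (log2 fold change 0.54 with SE 0.16, adjusted p = 0.0393). It was the lower in collagen in mouse 3, and its call was lost without mouse 1 (adjusted p = 0.149), mouse 2 (adjusted p = 0.0973) or mouse 4 (adjusted p = 0.0806), and without the cells near 4T1 (0.45, adjusted p = 0.0623). Ccnb2 was detected in 12.7% ± 2.22 of thinned collagen cells and 4.32% ± 1.43 of Matrigel cells (exact paired permutation p = 0.125, the smallest possible), against 1 of 107 macrophages and 43 of 98 4T1 cells.

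Part of the lipid synthesis genes were higher in collagen. Of 22 cholesterol synthesis genes 9 were higher, 1 (Insig1) lower and 12 not called (median 0.35; 4 and 0 without the block), beside 12.9% and 12.7% of all genes. Of 12 fatty acid synthesis genes 5 were higher, 1 (Me1) lower and 6 not called (median 0.56), beside the same shares of all genes. Without mouse 1 or 2 the cholesterol count was 6 higher, and without mouse 1, 2 or 3 the fatty acid count was 3 higher. Scd2, a desaturase that makes monounsaturated fatty acids (chromosome 19, 44293674 to 44306864), had 70.6, 55.6, 37.9 and 128 CPM in collagen, against 19.1, 17.5, 8.53 and 22.6 CPM in Matrigel (log2 fold change 2.05 with SE 0.14, adjusted p = 0.000126). Without the cells near 4T1 its log2 fold change was 2.65, and 82.7% of thinned 4T1 cells had the RNA. Its relative Scd1 had 19.9, 26.8, 19.0 and 28.2 CPM in collagen and 9.17, 7.78, 5.86 and 6.82 CPM in Matrigel (1.63, SE 0.18, adjusted p = 0.000876). The mevalonate enzymes Mvk and Mvd rose by 1.27 (SE 0.21, adjusted p = 0.00395) and 1.22 (SE 0.16, adjusted p = 0.00185), and Fdps, which makes farnesyl diphosphate, by 0.86 (SE 0.12, adjusted p = 0.00231). Srebf1, which drives lipid synthesis, rose by 0.86 (SE 0.14, adjusted p = 0.00412), a call lost in thinned cells (adjusted p = 0.0954). These 6 genes did not overlap between the gels.

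Energy metabolism and secretion followed with smaller differences. Of 26 glycolysis and hypoxia genes 10 were higher and 0 lower (4 and 0 without the block), beside 12.9% and 12.7% of all genes, with a median of 0.24. The higher count was 5 without mouse 1 and 6 without mouse 2 or without mouse 3, and without the cells near 4T1 it was 8, with a median of 0.14. Bnip3, a hypoxia-induced mitophagy receptor, had 20.3, 13.3, 20.0 and 36.0 CPM in collagen and 4.71, 3.97, 6.24 and 11.8 CPM in Matrigel (log2 fold change 1.78 with SE 0.16, adjusted p = 0.000377). The lactate exporter Slc16a3 rose by 1.56 (SE 0.24, adjusted p = 0.00303) and the phosphofructokinase Pfkl by 1.01 (SE 0.14, adjusted p = 0.00195). The hypoxia genes Vegfa, Adm and Ndrg1 were not called. Of 22 oxidative phosphorylation genes 8 were higher and 0 lower, beside 12.9% and 12.7% of all genes, with a median of 0.22. Their higher count was 2 without mouse 1 or without mouse 2 and 3 without mouse 3. The unfolded protein response covers chaperones and stress factors of the endoplasmic reticulum. Its genes gave 7 higher and 2 lower (Dnajb9 and Atf6) of 18, beside 12.9% and 12.7% of all genes, and 4 higher without mouse 2 or without mouse 3. Hsp90b1 had 537, 722, 646 and 523 CPM in collagen and 373, 386, 449 and 316 CPM in Matrigel (0.67, SE 0.09, adjusted p = 0.00227), and Pdia4 rose by 0.89 (SE 0.09, adjusted p = 0.000617).

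Cornification genes, which mark squamous differentiation, were lower where called (4 of 11, 0 higher, median -0.66), beside 12.7% and 12.9% of all genes. Without mouse 1 they gave 2 lower with a median of -0.33, without mouse 4 they gave 4 lower and 2 higher, and without the block 0. Sprr1a, a precursor of the cornified envelope, had 29.3, 8.52, 3.45 and 5.08 CPM in collagen and 420, 51.9, 4.20 and 21.4 CPM in Matrigel (log2 fold change -3.07 with SE 0.39, adjusted p = 0.00139). Mouse 1 set much of this difference, and without it the log2 fold change was -1.98. The share of thinned cells with Sprr1a was 3.30% ± 2.30 in collagen and 4.37% ± 3.56 in Matrigel, and mouse 3 went the other way (exact paired permutation p = 0.375). Sfn, or stratifin, fell by 0.67 (SE 0.17, adjusted p = 0.0234), a call lost without mouse 3 (adjusted p = 0.075).

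Genes outside these lists completed the ends of the ranking. Higher in collagen were Igfbp5, a binding protein of insulin-like growth factors, with 73.6, 131, 9.99 and 28.6 CPM in collagen and 8.57, 28.6, 5.86 and 16.4 CPM in Matrigel (log2 fold change 1.91 with SE 0.34, adjusted p = 0.00563), and Apol9b, an apolipoprotein L gene with a close copy, by 1.84 (SE 0.12, adjusted p = 0.000116). Lower were Clcf1, a cytokine of the interleukin-6 family (-1.58, SE 0.12, adjusted p = 0.000174), and Plet1, a surface protein of epithelial progenitors (-1.42, SE 0.12, adjusted p = 0.000251). Plet1 had 159, 179, 226 and 113 CPM in collagen and 445, 358, 689 and 341 CPM in Matrigel, with no overlap. The vasoconstrictor gene Edn2 fell by 1.93 (SE 0.30, adjusted p = 0.00324), and by 2.60 without mouse 3. The phosphatase Acpp fell by 1.84 (SE 0.21, adjusted p = 0.00101) and the protease inhibitor Cst6 by 1.39 (SE 0.25, adjusted p = 0.00593).

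The same gate was applied to the day 3 pool (2845 cells) to ask whether the matrix difference of day 0 was that of day 3. The change was tested in 1 fit of 16 sums as the difference on day 3 minus that on day 0. Of 12218 genes 327 (2.68%) had a difference that was more positive on day 3 and 365 (2.99%) one that was more negative. Among the 2965 genes called on day 0, 557 had a called change, in 553 of them against the direction of day 0. The day 0 difference is subtracted in the change, so genes chosen for it lean to a change against it. The count of 553 therefore does not measure how far the differences faded, and the same limit holds for the list counts below. Without mouse 1, 2, 3 or 4 the called changes numbered 14, 206, 130 or 240, and without the block 0 (1340 at an unadjusted p under 0.05; DESeq2 gave 1128). The days were separate pools, so day and pool cannot be told apart within a gel.

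Interferon genes gave 10 called changes of 23 tested and antigen presentation genes 8 of 15, all of them negative. Of all genes 2.99% had a negative and 2.68% a positive called change. The median log2 fold changes of the 2 lists on day 3 were 0.39 and 0.13. Ifitm3 had a log2 fold change of 2.18 on day 0 and 0.11 on day 3 (change -2.06, adjusted p = 0.00888), and Psmb8 of 1.77 and 0.13 (change -1.62, adjusted p = 0.00458). B2m kept its difference, with 0.64 on day 0 and 0.60 on day 3. Of the NRF2 list 8 of 24 members had a called change, all of them positive, beside 2.68% of all genes. The day 3 median of the list was -0.24. Hmox1 had -3.07 on day 0 and -0.64 on day 3 (change 2.47, adjusted p = 0.0146).

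Some ligand and early response genes had the opposite sign on day 3. Hbegf had -1.07 on day 0 and 0.42 on day 3 (change 1.53, adjusted p = 0.0208), and Fosl1 -1.13 and 0.58 (change 1.73, adjusted p = 0.00888). Fn1 had -0.59 on day 0 and 1.27 on day 3 (change 1.84, adjusted p = 0.0176). Postn and Tagln had larger differences on day 3, with Postn at 1.82 and 5.17 and Tagln at 1.77 and 5.13 (adjusted p = 0.0408 and adjusted p = 0.0359 for the changes). For Mmp14 the difference was 1.43 on both days, and for Vim it was 1.77 and 1.52 with no called change (adjusted p = 0.80). The plot of both days shows the interferon genes along the horizontal axis.

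**Figure D5:**
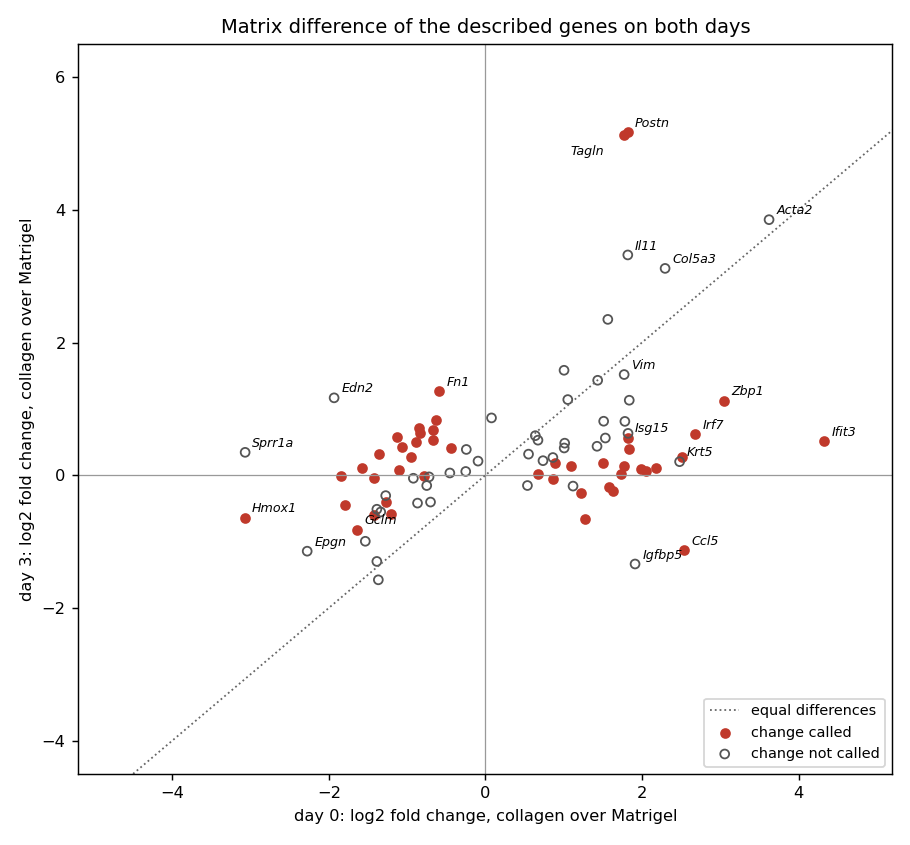
Log2 fold change of collagen over Matrigel on day 0 (horizontal axis, fit of day 0 alone) and day 3 (vertical axis, fit of both days) for the 90 genes described, 1 point per gene. Filled points had a called change between the days, open points did not, and the dotted line marks equal differences; Ifit3 lies at 4.33 and 0.51, and Tagln and Postn lie above 5 on the vertical axis.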

How the data were processed

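Single-cell RNA-seq (10x Genomics) was run on pools of tumour cells; per the submitters' processing notes, the tools were Cell Ranger 3.0.2 and Scanpy 1.4.4 and the build GRCm38 (mm10); the release of the annotation was not given in the sources used here. For counts, the authors deposited a matrix of unnormalised UMI counts, and the authors' cell annotation gives mouse, medium, total counts and the mitochondrial fraction of counts (per the file headers). No column of per-sample values was left unused (0 columns). Identifiers were matched to GENCODE vM21 (20588 of 20605), whose GRCm38 coordinates are printed.

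Cells were filtered and UMIs summed per mouse and medium as described in the report; no doublet caller was run. Cells near 4T1 were those whose profile was closer to the mean of the 4T1 cells than to that of tumour epithelium. Genes passing edgeR's filterByExpr were tested with edgeR 4.0.16 (R 4.3.3; TMM scaling, quasi-likelihood F test, mouse as a block, 3 residual degrees of freedom on day 0), with Benjamini-Hochberg adjustment over all genes tested and calls at an adjusted p under 0.05. The log2 fold changes are collagen over Matrigel. Sums of the same mouse deviated together (r 0.336 to 0.624, other pairs -0.443 to 0.073), and the mouse pairs the gels because the annotation names the same animal. Counts of replicate sums differed beyond sampling noise in all 12 pairs (chi-square over its degrees of freedom, 7.56 to 67.2). The scripts were tested on simulated data, where 8.26% of the day 0 calls and 3.76% of the calls of the change were genes left unchanged. Shares of cells were compared with exact paired permutation tests, two-sided, in cells thinned to 5000 UMIs. DESeq2 1.42.0, median-of-ratios scaling, no expression filter, other UMI and Epcam minimums, thinning, and removal of mitochondrial and ribosomal protein genes, of cells near 4T1 and of each mouse were alternatives. Python 3.11.15, NumPy 2.4.6, SciPy 1.17.1, pandas 2.3.3 and matplotlib 3.10.9 were used.

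Genes were named by rule: the 15 highest and 15 lowest called log2 fold changes of at least 20 CPM with 1 sign in all mice (predicted, ribosomal protein and mitochondrial genes left out), up to 6 called members with the smallest p of each of 36 lists with at least 2 called, and 14 state and receptor genes; 195 genes met it, of which 83 are described with values. Another 7 (Ifit3, H2-K1, B2m, Nqo1, Osgin1, Postn and Lama3) fell outside the rule and were added after their values were seen. The cells, lists and genes were chosen with earlier results of these data known. Counts in fewer cells are less precise: the smallest sum held 102 cells on day 0 and 40 on day 3 (mouse 1 in Matrigel).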

Additional observations from a re-analysis of the deposited data

Results flagged for a closer look

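In 10 groups of 4 mice, 1 mouse stood apart from the other 3 by Dixon's 95% criterion, which chance alone meets in about 1 of 20 groups. The groups examined were the CPM of the 90 genes described, the quality measures and the shares of cells of some genes, each in both gels. A count of this size is therefore near what chance alone would give. In collagen these were mouse 4 for Tap2 (42.0 CPM, below the others), Krt18 (1024 CPM, below) and the share of thinned cells with Hmox1 (54.9%, above) and with Gclm (44.1%, below). Also in collagen, mouse 3 stood apart for Hbegf (254 CPM, below), Plaur (435 CPM, above) and Agrn (21.7 CPM, below). In Matrigel mouse 4 stood apart for Gclc (234 CPM, above) and Lama3 (62.0 CPM, above), and mouse 1 for Sprr1a (420 CPM, above).

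For 46 of the 90 genes described, the matrix difference on day 3 differed from that on day 0 in the test of the change itself (edgeR quasi-likelihood test over 16 sums, adjusted p under 0.05). Among all genes tested for the change 5.66% did so. The values that follow are the log2 difference on day 3 minus that on day 0. The day 0 difference also served to name most of these genes, so changes against it are favoured. Among interferon and antigen presentation genes they were Isg15 -1.22, Ifitm3 -2.06, Bst2 -1.42, Irf7 -2.14, Zbp1 -1.92, Oasl2 -2.24, Oasl1 -1.91, Ifit3 -3.88, Psmb8 -1.62, Psmb9 -1.74, Tap2 -1.31 and Psme1 -0.94, and for the chemokine Ccl5 -3.70. Antioxidant, heme and autophagy genes had positive changes, with Hmox1 2.47, Gclm 0.83, Gclc 0.83, Srxn1 1.37, Txnrd1 0.63, Osgin1 1.71, Slc48a1 0.89 and Sqstm1 1.25. The EGF family ligands gave Hbegf 1.53, Areg 1.398 and Ereg 1.53, and early response, AP-1, YAP and urokinase genes Fosl1 1.73, Myc 0.78, Dusp1 1.62, F3 1.21, Plaur 1.51 and Plau 1.36. Matrix and contractile genes gave Tagln 3.39, Fn1 1.84, Postn 3.47 and Cd44 0.87. Lipid and endoplasmic reticulum genes had negative changes, with Scd2 -2.01, Scd1 -1.87, Mvd -1.49, Mvk -1.93, Fdps -0.93, Pdia4 -0.71 and Hsp90b1 -0.65, as did the cyclin Ccnb2 with -1.67. Others were Sfn 1.22, Acpp 1.83, Clcf1 1.78 and Plet1 1.402. Without mouse 1, 2, 3 or 4 the call of 4, 28, 14 or 27 of these 46 genes was kept, and without the mouse as a block 0.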

How the results depend on the processing

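The counts of called genes depended on how the samples entered the fit. With no replicate block, that is without pairing by mouse, 254 genes were higher and 143 lower on day 0, and the change between the days gave 0 and 0 (1340 genes at an unadjusted p under 0.05). Cells thinned to 5000 UMIs gave 695 higher and 739 lower among 9187 genes tested. DESeq2 gave 535 positive and 593 negative changes between the days. Leaving out 1 mouse gave 706 to 1437 genes higher and 622 to 1486 lower on day 0, and 5 to 111 positive and 9 to 135 negative changes. Of the 85 called genes described, 45 kept their call under every setting tried; 46 kept it without the block, 83 in DESeq2, 84 without cells near the 4T1 profile and 78 in the fit of both days. Thinning ended the calls of Fn1, Cd44 and Srebf1, and the fit of both days those of Ereg, Lama3, Col17a1, Cd44, Fn1, Mki67 and Igfbp5. The signs that turned were those of genes not called: Cdh3 ranged from -0.015 without mouse 2 to 1.14 without mouse 4, Itga2 from -0.14 without mouse 3 to 0.17 without mouse 2, and Ddr1 from -0.22 without mouse 3 to 0.062 without mouse 4, with 0.077 in thinned cells. With cells of at least 2000 UMIs the median number of genes per cell was lower in collagen by a difference of -296.5, against 125.25 in the cells kept. The cause of these shifts was not tested. Leaving out a mouse or thinning leaves fewer mice or UMIs, while the fit without the block and DESeq2 used the same sums. Genes under the expression filter were not tested, and shares of cells from 4 pairs cannot reach an exact p under 0.125.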
